A study of Mus musculus with 30 samples.

Results

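The BCL2 family genes of the mitochondrial death pathway were followed in mouse forelimb buds after WNT signaling was blocked. The 10 genes were selected by name from the 50833 genes of the count table, with their difference between treated and control limb buds already known. They comprise 5 BH3-only genes (Bmf, Bcl2l11, Bbc3, Pmaip1 and Bid), 2 effectors (Bax and Bak1) and 3 guardians (Bcl2, Bcl2l1 and Mcl1). All 10 passed the filter on low counts in every comparison. Their levels and differences between treated and control limb buds are therefore given as a description. The number of members past the threshold of the fit over all genes is printed beside the share of all genes, and nothing is read from it. Tests are read for development in control limb buds, a comparison that shares its DMSO libraries with those of C59. Tests are also given for the other gene lists. Those lists were chosen with earlier results of these data known, so their tests of C59 against DMSO are not independent of that choice.

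The 30 libraries came from wild-type Swiss Albino embryos of pregnant females that received a single intraperitoneal injection at embryonic day E10.5. Control females received DMSO diluted in buffered saline. Treated females received Wnt-C59 (C59), an inhibitor of porcupine, the enzyme required for secretion of WNT ligands, from a DMSO stock in a vehicle that also held methylcellulose and Tween-20. The injected solutions thus differed in more than C59, and the vehicle and C59 cannot be told apart. Forelimb buds were collected 1, 6, 12, 18 or 24 h later, with 3 libraries for each of the 10 groups. Per the methods of the study, each library is a pair of forelimb buds from a different embryo of either sex, with at least 3 litters per condition. The agent reached the whole dam and embryo, not the limb bud alone.

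BCL2 family proteins decide whether the outer mitochondrial membrane stays intact. BH3-only proteins relay stress or loss of growth signals, the guardians BCL2, BCL-XL (encoded by Bcl2l1) and MCL1 bind and restrain them, and the effectors BAX and BAK1 form pores that release cytochrome c. Released cytochrome c joins APAF1 in the apoptosome, which activates caspase 9 and then the executioner caspases. In the limb, programmed death removes cells at the margins and later between the digits, and mice lacking both Bax and Bak1 keep interdigital webs. Cell survival after WNT inhibition was also assessed in the study by other means, not analysed here.

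The feature that joins the members is the BH3 motif, the short helix through which they bind each other. The codons of its core, 27 bases of coding sequence, are shown for 9 members in order to let the members be compared. Pmaip1 was left out of the search. They were read from GENCODE M21 transcripts (mouse GRCm38, the build of the files), 5′ to 3′ on the coding strand. Capitals mark the codon of the conserved leucine and the codons of the small residue and the aspartate that follow it.
Bmf: CTTcagtgtattGCAGACcagttccat
Bcl2l11: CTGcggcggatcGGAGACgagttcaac
Bbc3: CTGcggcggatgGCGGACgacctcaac
Bid: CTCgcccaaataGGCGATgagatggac
Bax: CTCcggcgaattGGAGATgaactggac
Bak1: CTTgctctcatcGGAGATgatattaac
Bcl2: CTCcgccgggctGGGGATgacttctct
Bcl2l1: CTGagagaggcaGGCGATgagtttgaa
Mcl1: CTGcggcgcgtgGGCGACggcgtgcag
The Bmf codons lie in coding exon sequence at chr2:118545100-118545126 on the minus strand, those of Bcl2l11 at chr2:128147150-128147176 and those of Bbc3 at chr7:16313773-16313799, both on the plus strand. Bid (chr6:120897289-120897315), Bax (chr7:45465997-45466023), Bak1 (chr17:27022531-27022557), Bcl2 (chr1:106712575-106712601) and Bcl2l1 (chr2:152829697-152829723) are on the minus strand, and Mcl1 (chr3:95659436-95659462) is on the plus strand. Bcl2l11 and Bbc3 share 22 of the 27 bases, the most of any pair, whereas Bmf and Bcl2l1 share 10.

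Depth ranged from 18188636 to 38974885 counts per library. The level of Axin2, a feedback target of canonical WNT signaling, served as the check of the treatment. Axin2 was 104 to 118 CPM (counts scaled to a common library size) in the 3 DMSO libraries and 26.5 to 29.2 CPM in the 3 C59 libraries at 6 h (log2 fold change -1.97 ± 0.06 SE, edgeR quasi-likelihood test, adjusted p = 7.6e-11), and it remained lower at 12 h (-1.45 ± 0.06, adjusted p = 1.4e-07). At 18 h (adjusted p = 0.33) and 24 h (adjusted p = 0.51) it did not pass. The limb mesenchyme genes Prrx1, Tbx5, Hand2, Hoxd13 and Twist1 summed to 1270 to 1904 CPM in every library, against 9.8 to 23.7 CPM for the hindlimb genes Pitx1 and Tbx4. At 18 h C59 replicate 3 stood apart from its group, and the 18 h log2 fold changes of the members are given with and without it. Embryo sex was not balanced at every time. At 6 h, Ddx3y, Eif2s3y, Kdm5d and Uty added up to 19.8 to 33.2 FPKM (fragments per kilobase and depth) in the 3 C59 libraries and were listed at 0 in the 3 DMSO libraries, so that sex and treatment cannot be told apart there. At 1 h the same sum was 21.2 to 38.2 in C59 and 7.66, 9.03 and 0.0469 in DMSO, so sex and treatment cannot be told apart there either. The 7.66 and 9.03 lay between the low and the high values of all other libraries, and the reason was not tested. In DMSO at 24 h the sum was 20.1, 0.0147 and 19.6. Sex was thus not balanced between 1 h and 24 h in DMSO, and its part in that comparison was not tested.

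Compared per length, the levels of the members in control limb buds spanned more than 1 order of magnitude. In DMSO at 12 h, Bax was highest at 68.8 ± 2.5 FPKM (SD, n = 3), followed by Mcl1 at 48.5 ± 0.96 and Pmaip1 at 39.9 ± 2.7 FPKM. Bcl2l1 (31.0 ± 1.9 FPKM) and Bak1 (29.2 ± 0.74 FPKM) did not differ beyond their spread. Bmf was at 14.7 ± 0.62 and Bcl2l11 at 8.2 ± 0.19 FPKM. Bbc3 (4.57 ± 0.084 FPKM) and Bcl2 (4.55 ± 0.37 FPKM) did not differ beyond their spread. Bid was lowest at 3.56 ± 0.55 FPKM, with all 3 of its values below those of Bbc3 and Bcl2. An effector thus had the highest transcript level and a BH3-only gene the lowest.

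The course of normal development is a comparison other than that of C59 with DMSO, and was tested over the 15 DMSO libraries. The same DMSO libraries served in the comparisons with C59, whose results were known when the members were chosen. The test is thus not fully independent of that choice. Between 1 h and 24 h, 8 of the 10 members changed. The test was edgeR's quasi-likelihood test, and a gene passed when its p adjusted over all genes was under 0.05. The 8 comprised 2 higher and 6 lower, where 56.5% of the 13716 genes tested passed (28.9% higher and 27.6% lower), and none of the 10 also exceeded an absolute log2 fold change of 1, against 12.1% of genes. Across the 5 times 57.3% of genes differed. The members had a median log2 fold change of -0.30 against 0.00228 over all genes. The guardian Bcl2 rose from 25.0, 28.3 and 27.7 CPM at 1 h to 54.4, 53.6 and 52.5 CPM at 24 h (log2 fold change 0.99 ± 0.10 SE, adjusted p = 2.6e-07). All 3 late libraries lay above the 3 early ones. Bcl2l1 rose less, by 0.25 ± 0.05 (adjusted p = 0.00031). The guardian Mcl1, a short-lived protein, went the other way and fell by 0.26 (SE 0.04, adjusted p = 4.6e-05). 

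Both effectors fell in control limb buds with time, Bak1 by 0.43 (SE 0.05, adjusted p = 3.5e-06) and Bax by 0.38 (SE 0.06, adjusted p = 6.6e-05) on the log2 scale. Among the BH3-only genes, Bcl2l11, encoding BIM, fell by 0.36 (SE 0.05, adjusted p = 7.0e-06) and Bbc3, encoding PUMA, by 0.35 (SE 0.10, adjusted p = 0.0053). Pmaip1, encoding NOXA, which binds MCL1, had the steepest course. It was 76.9, 75.5 and 82.3 CPM at 1 h, 139, 131 and 147 CPM at 12 h, and 48.5, 50.9 and 40.9 CPM at 24 h. Levels thus peaked at 12 h and were lowest at 24 h (24 h against 1 h, -0.74 ± 0.09, adjusted p = 1.7e-06, and adjusted p = 1.7e-09 for any difference among the 5 times). Bmf (0.07 ± 0.06, adjusted p = 0.39) and Bid (0.10 ± 0.12, adjusted p = 0.51) did not pass, neither between 1 h and 24 h nor among the 5 times (adjusted p = 0.099 for Bmf and 0.18 for Bid).

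**Figure D1:**
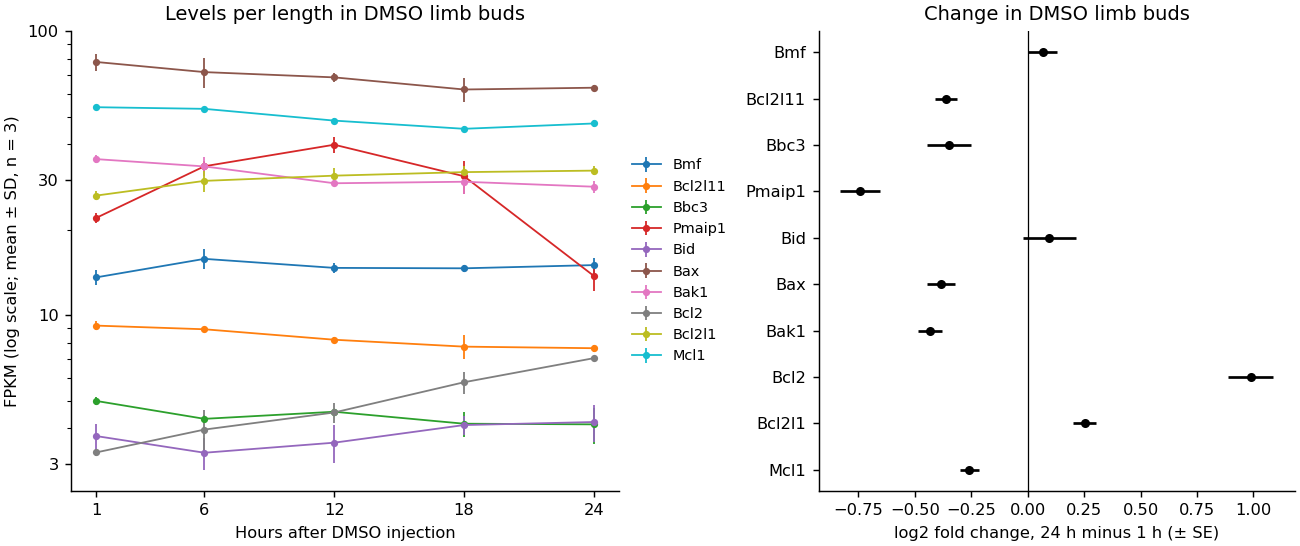
Left, mean FPKM ± SD (n = 3, log axis) of the 10 genes in DMSO limb buds against hours after injection. Right, log2 fold change ± SE between 24 h and 1 h in DMSO, with Bcl2 at 0.99 and Pmaip1 at -0.74 as the extremes.

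After C59, the largest differences among the members were those of Bmf at 12 h, which was higher than in DMSO, and of Pmaip1 at 18 h and 24 h, which was lower. At 1 h none of the 10 passed with edgeR (2 at an unadjusted p under 0.05, none with DESeq2 or limma), where 2.75% of 13076 genes did (1.14% higher and 1.61% lower). At 6 h 6 of 10 passed (19.6% of 13100 genes, 8.2% higher and 11.4% lower), namely Bmf, Bcl2l11, Bbc3 and Pmaip1 higher and Bid and Mcl1 lower. At 12 h it was 6 again (47.5% of 13324 genes, 22% higher and 25.5% lower), with Bmf, Bcl2l11 and Bbc3 higher and Bax, Bak1 and Mcl1 lower. At 18 h 3 passed (7.08% of 13413 genes, 3.46% higher and 3.62% lower), Bmf and Bid higher and Pmaip1 lower, or 4 without C59 replicate 3, and at 24 h Pmaip1 was the 1 that passed, lower (6.44% of 13675 genes, 2.88% higher and 3.56% lower). Because the genes were chosen on this contrast, nothing is read from these counts. The 3 called values, past an absolute log2 fold change of 1 as well, were Bmf at 12 h (4.95% of genes called) and Pmaip1 at 18 h (1.29%) and 24 h (0.819%), whereas no member was called at 1 h (0.283%) or 6 h (1.17%). The median log2 fold change of the members was between -0.07 and 0.07 at each of the 5 times and that of all genes between 0.00124 and 0.0175.

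**Figure D2:**
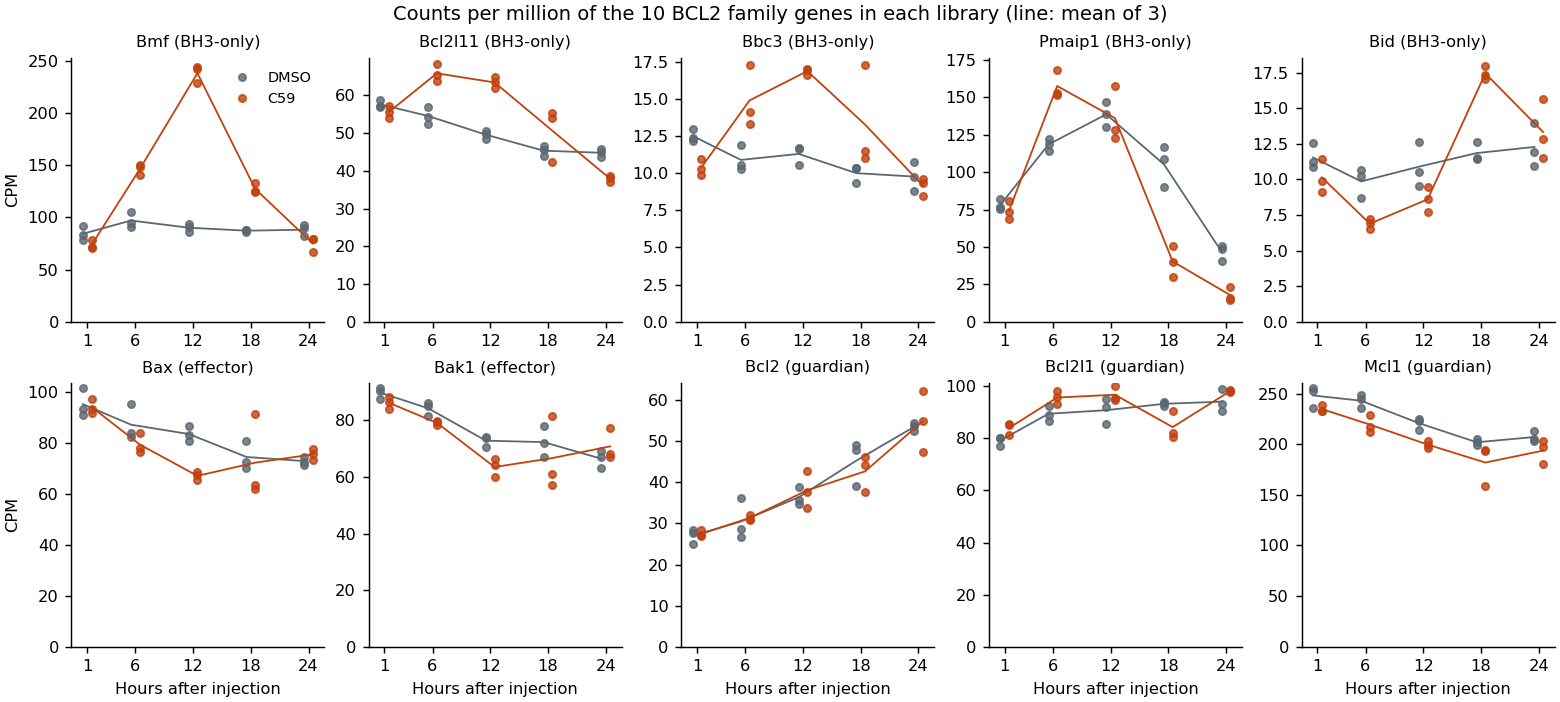
CPM of each of the 10 genes (panels) against hours after injection, with 1 point per library (DMSO grey, C59 orange) and a line through the means of 3. Bmf in C59 peaks at 229 to 244 CPM at 12 h, while Pmaip1 in C59 drops to between 14.6 and 23.1 CPM at 24 h.

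Bmf, a BH3-only protein known to respond to loss of cell attachment, had the largest positive difference. In DMSO it stayed between 78.5 and 106 CPM over all times. In C59 it was 72, 70.4 and 78.3 CPM at 1 h, 150, 148 and 140 CPM at 6 h, and 242, 229 and 244 CPM at 12 h. It then returned to 124, 133 and 125 CPM at 18 h and 79.2, 66.5 and 79 CPM at 24 h. The C59 libraries thus lay below all DMSO libraries of the same time at 1 h and 24 h, and above them at 6, 12 and 18 h. The log2 fold change was 0.59 ± 0.06 at 6 h, 1.40 ± 0.05 at 12 h (2.64-fold) and 0.56 ± 0.08 at 18 h (0.57 without C59 replicate 3), against -0.20 ± 0.06 at 1 h and -0.23 ± 0.08 at 24 h. Among the 12 h libraries with a Y-linked sum under 0.5 FPKM, Bmf was 91.2 and 85.9 CPM in DMSO and 229 and 244 CPM in C59. The part of embryo sex in the Bmf values was not tested, and at 1 h and 6 h sex and treatment cannot be told apart. The exons of Bmf overlap no other annotated gene.

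Bcl2l11 and Bbc3 were also higher in C59 at 6 h and 12 h, with smaller differences than Bmf at 12 h. Bcl2l11 was 65.5, 63.7 and 68.3 CPM in C59 at 6 h against 52.4, 54.2 and 56.9 CPM in DMSO. At 12 h it was 63.4, 64.8 and 62 CPM against 49.7, 48.5 and 50.5 CPM. The groups did not overlap at either time (log2 fold change 0.27 ± 0.06 and 0.36 ± 0.05). By 24 h Bcl2l11 in C59, at 38.2, 37 and 38.6 CPM, was below the 43.6, 45 and 45.7 CPM of DMSO (-0.23 ± 0.07). Bbc3, a target of p53 and of FOXO3, was 17, 17 and 16.6 CPM in C59 and 11.7, 10.6 and 11.7 CPM in DMSO at 12 h (0.58 ± 0.09). At 1 h Bbc3 had been lower in C59, at 9.9, 11 and 10.3 CPM against 12.1, 13 and 12.4 CPM (-0.27 ± 0.10). At 18 h its value rested on the library that stood apart, with 11, 11.5 and 17.3 CPM in C59 against 10.3, 9.31 and 10.4 CPM in DMSO, and the log2 fold change was 0.43 ± 0.18 with replicate 3 and 0.19 without it. Bcl2l11 at 18 h was 0.18 ± 0.12 with replicate 3, whose 42.4 CPM lay under the 55.4 and 54 CPM of the other two, and 0.29 without it.

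Bmf, Bcl2l11 and Bbc3 were the 3 members higher in C59 without overlap of the groups at both 6 h and 12 h. A promoter of each is printed for that reason, as 300 bases (250 before to 50 after the start site) from RefSeq on GRCm38.p6, 5′ to 3′ on the gene strand. For Bmf and Bcl2l11 it is the promoter farthest upstream, and for Bbc3 it is the one of 3 listed that was picked, after the search, for its FOXO match. The promoter of Bbc3 farthest upstream held none of the motifs. Capitals mark matches to any of the motifs searched.
Bmf: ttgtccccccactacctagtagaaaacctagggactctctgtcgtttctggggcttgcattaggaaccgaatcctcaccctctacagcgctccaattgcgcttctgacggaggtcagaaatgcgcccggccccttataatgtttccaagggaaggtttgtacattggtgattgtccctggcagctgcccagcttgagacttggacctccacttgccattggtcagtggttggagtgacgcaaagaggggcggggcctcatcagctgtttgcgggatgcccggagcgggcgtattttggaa
Bcl2l11: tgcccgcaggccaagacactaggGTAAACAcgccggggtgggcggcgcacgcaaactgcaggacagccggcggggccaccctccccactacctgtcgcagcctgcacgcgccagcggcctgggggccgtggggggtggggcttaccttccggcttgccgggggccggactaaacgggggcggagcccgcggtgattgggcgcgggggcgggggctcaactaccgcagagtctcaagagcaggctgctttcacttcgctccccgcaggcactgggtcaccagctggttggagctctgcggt
Bbc3: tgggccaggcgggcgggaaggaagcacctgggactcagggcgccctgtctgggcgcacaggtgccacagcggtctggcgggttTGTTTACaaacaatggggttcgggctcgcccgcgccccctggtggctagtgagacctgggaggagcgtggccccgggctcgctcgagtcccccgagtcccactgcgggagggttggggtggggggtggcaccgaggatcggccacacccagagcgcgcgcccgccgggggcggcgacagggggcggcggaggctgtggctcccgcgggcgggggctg
They lie at chr2:118549637-118549936 (minus strand), chr2:128125788-128126087 (plus strand) and chr7:16310011-16310310 (plus strand). Searched on both strands were TCF/LEF (CTTTGA), FOXO (GTAAACA), E2F (TTTNGCGC), AP-1 (TGANTCA), the MYC E-box (CACGTG), the CRE (TGACGTCA) and the p53 half-site. The FOXO letters were in 2 of the 16 listed promoters of the 9 members with an entry, those printed for Bcl2l11 and Bbc3, against 3.6% of 32851 promoters in the table. The printed Bmf promoter held none of these motifs, whereas another Bmf promoter and that of Bax held a p53 half-site (8.4% of all promoters). The TCF/LEF letters were in 1 of the 16, that of Bax (16.0% of all promoters), and the E2F letters in 1, of Bcl2l1 (1.4%). The E-box was in 2, of Bax and Bbc3 (7.2%), and the AP-1 and CRE letters were in none (7.8% and 1.8%).

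Pmaip1, a gene on chromosome 18, was first higher and then much lower. At 6 h it was higher in C59, with 169, 152 and 153 CPM against 119, 122 and 114 CPM in DMSO (log2 fold change 0.41 ± 0.05). At 12 h the groups overlapped, with 123, 128 and 158 CPM in C59 and 139, 131 and 147 CPM in DMSO (-0.03 ± 0.09). At 18 h it was 50.9, 40 and 30.1 CPM in C59 and 109, 90.2 and 117 CPM in DMSO. At 24 h it was 15.6, 23.1 and 14.6 CPM against 48.5, 50.9 and 40.9 CPM. Every C59 library was below every DMSO library at both late times, by 2.57-fold at 18 h (-1.36 ± 0.18) and 2.61-fold at 24 h (-1.38 ± 0.14). Without C59 replicate 3 the 18 h value was -1.19. The group means at 24 h were 17.7 ± 4.6 CPM in C59 and 46.8 ± 5.2 CPM in DMSO (SD, n = 3).

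Bid, which is cut by caspase 8 and links death receptors to mitochondria, was lower in C59 before it was higher. At 6 h the C59 libraries were at 7.21, 6.52 and 6.94 CPM and the DMSO libraries at 10.7, 8.7 and 10.2 CPM (-0.52 ± 0.13). At 12 h they were 9.48, 7.69 and 8.64 CPM against 9.53 to 12.6 CPM in the 3 DMSO libraries (-0.34 ± 0.14), with neighbouring libraries of the groups nearly touching. At 18 h the order was the opposite, 18, 17.3 and 17.1 CPM in C59 against 12.6, 11.5 and 11.5 CPM in DMSO (0.58 ± 0.11, and 0.59 without C59 replicate 3). In the annotation, 628 of the 3550 exonic bases of Bid (17.7%) overlap Bcl2l13 on the other strand, and the FPKM were computed as for an unstranded library while the strand setting of the counts is not given in the sources used here, so reads there could belong to either gene.

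The effectors differed less, and downward. Bax at 12 h was 68.5, 67.2 and 65.6 CPM in C59 and 83.1, 80.6 and 86.8 CPM in DMSO (-0.32 ± 0.05), without overlap. Bak1 at 12 h was 64.2, 66.2 and 60.1 CPM against 74, 70.5 and 74 CPM (-0.20 ± 0.06). At 18 h C59 replicate 3 stood out for both, with Bax at 62, 63.6 and 91.2 CPM and Bak1 at 61.2, 57.3 and 81.6 CPM. The log2 fold change at 18 h was -0.03 ± 0.15 for Bax and -0.10 ± 0.14 for Bak1 with that library, and -0.23 and -0.27 without it. By 24 h neither effector was separate from DMSO (0.06 ± 0.06 and 0.10 ± 0.07). Bax shares 192 exonic bases with Gm45808 on its own strand and Bak1 614 with Ggnbp1 on the other strand, so reads there could likewise belong to either gene.

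The guardians differed least. Bcl2 was within 0.07 of 0 on the log2 scale at every time and the groups overlapped at all 5 (at 18 h -0.07 ± 0.12, and 0.0072 without C59 replicate 3). Its developmental increase was seen in both treatments, from 27.5 ± 0.85 CPM at 1 h to 54.8 ± 7.5 CPM at 24 h in C59 and from 27 ± 1.8 to 53.5 ± 0.97 CPM in DMSO. Bcl2l1 was slightly higher at 1 h and 6 h (0.09 ± 0.05 at each) and lower at 18 h (80.4, 82.1 and 90.5 against 93.8, 92.4 and 93.7 CPM, -0.13 ± 0.09, and -0.18 without C59 replicate 3), without overlap at these 3 times. Mcl1 was lower in C59 at every time, between -0.08 ± 0.04 and -0.15 ± 0.05, and the groups were separate in CPM from 6 h on. At 6 h it was 212, 217 and 229 CPM in C59 against 235, 245 and 249 CPM in DMSO, and at 12 h 203, 199 and 196 CPM against 223, 214 and 225 CPM. At 18 h it was -0.13 ± 0.10, and -0.05 without C59 replicate 3. At 24 h the highest C59 library was at 202.728 CPM and the lowest DMSO library at 203.35 CPM. In FPKM the Mcl1 groups overlapped at 12 h (45.6 to 47.8 in C59 and 47.5 to 49.4 in DMSO). They also overlapped at 24 h (41.9 to 48.0 and 46.5 to 48.7 FPKM). Under the alternatives the 12 h log2 fold change was between -0.17 and -0.06. Bcl2 shares 558 of its 9157 exonic bases with an antisense transcript.

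**Figure D3:**
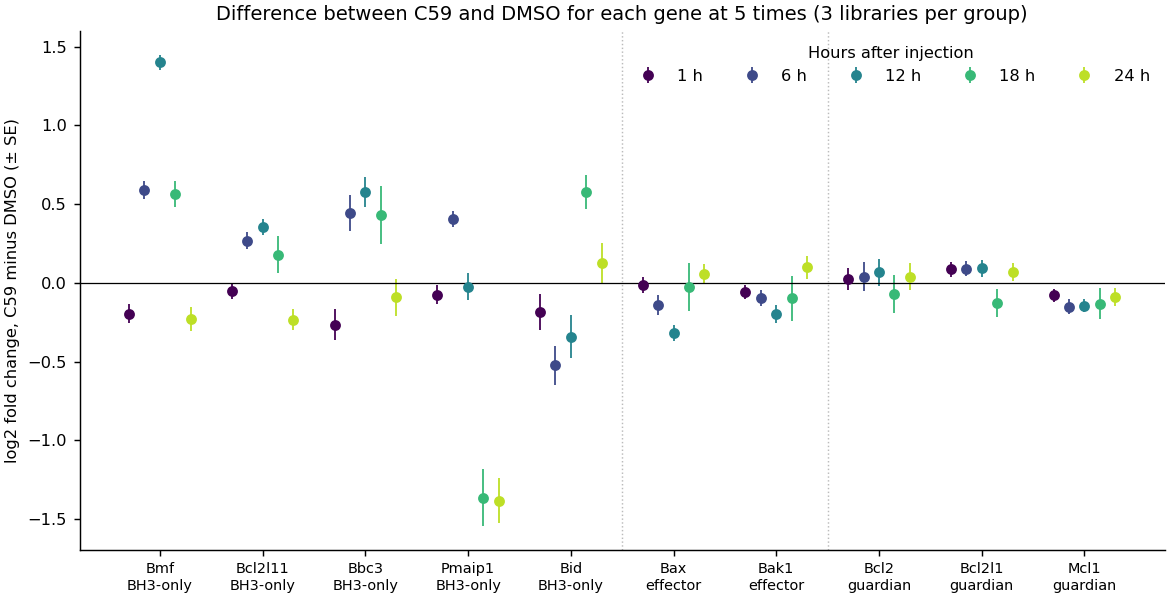
log2 fold change ± SE of C59 against DMSO for each member, 5 times from 1 h (dark) to 24 h (yellow), 3 libraries per group. BH3-only genes span -1.38 to 1.40, while the guardians stay between -0.15 and 0.09.

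Groups without overlap between C59 and DMSO were found for 3 members at 1 h, when 22.0% of all genes had them. They were found for 8 members at 6 h (36.8% of genes) and for 7 at 12 h (57.1% of genes). Later, 6 members were separate at 18 h (34.2% of genes) and 4 members at 24 h (27.7% of genes), and in DMSO alone 8 members were separate between 1 h and 24 h (64.5% of genes). In CPM, Mcl1 was separate at 4 times and Bmf at all 5, Bcl2 at none.

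Summed per class, the BH3-only genes differed most between the treatments at 12 h. The 5 BH3-only genes summed to 98.5 to 111 FPKM in C59 and 69 to 72.2 FPKM in DMSO at 12 h, and to 32.3 to 34.5 FPKM in C59 and 43 to 46.2 FPKM in DMSO at 24 h. The 2 effectors summed to 84.6 ± 2.4 FPKM in C59 and 98 ± 3.1 FPKM in DMSO at 12 h. The BH3-only sum was also lower in C59 at 18 h, at 52.4 to 55.3 FPKM against 55.4 to 65.6 FPKM in DMSO. The 3 guardians were at 85.1 ± 0.96 FPKM in C59 and 84 ± 2.8 FPKM in DMSO at 12 h, and lay between 74.1 and 91.5 FPKM in all 30 libraries. At 18 h the guardian sum was lower in C59 without overlap, at 74.1 to 77.6 FPKM against 81.4 to 85.6 FPKM. It was also lower at 1 h, at 79.0 to 82.0 FPKM against 83.3 to 84.3 FPKM, and at the other times the groups overlapped. FPKM sums are dominated by the more abundant genes of a class, which for the BH3-only class are Pmaip1 and Bmf.

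**Figure D4:**
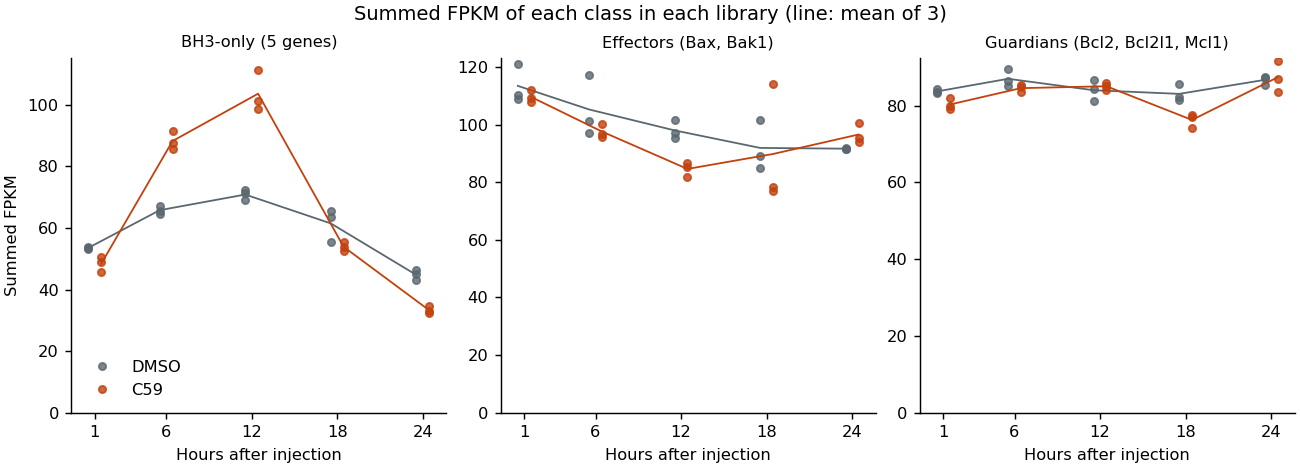
Summed FPKM of the BH3-only genes, effectors and guardians in each library (DMSO grey, C59 orange; lines through means of 3) against hours after injection. The BH3-only sum in C59 is highest at 12 h (98.5 to 111 FPKM) and the guardian sum stays between 74.1 and 91.5 FPKM.

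Markers of several other cell types differed between the groups at 12 h, when Bmf was highest. Of all 13324 genes tested at this time, 47.5% passed (22% higher and 25.5% lower). The endothelial count given below was close to that share. The summed level of 11 macrophage markers was 65.7 to 68.9 CPM in C59 and 39.9 to 44.3 CPM in DMSO, with 7 of 11 passing, all higher. Of the 7 surface ectoderm markers 6 passed, all higher (362.2 to 485.9 CPM against 259.1 to 290.1 CPM), as did 3 of 4 neural crest markers (85.3 to 114.2 CPM against 37.1 to 52.0 CPM) and 3 of 6 endothelial markers (348.8 to 389.9 CPM against 280.1 to 308.8 CPM). The limb mesenchyme sum was lower, at 1332 to 1349 CPM against 1811 to 1904 CPM, with 4 of 5 lower and 1 higher. All 5 muscle markers passed, 2 higher and 3 lower (110.4 to 142.7 CPM against 98.7 to 113.3 CPM), and 1 of 8 tested erythroid markers, higher. Of 12 S phase and mitosis genes 11 passed, all lower, with a median log2 fold change of -0.52. At 18 h 6 of these 12 passed, all lower (7.08% of all genes passed). At 24 h the limb mesenchyme sum was 1557 to 1727 CPM in C59 and 1781 to 1834 CPM in DMSO. Endothelial (257 to 283 against 302 to 307 CPM) and muscle sums (162 to 186 against 194 to 221 CPM) were lower too. Ectoderm (367 to 403 against 315 to 322 CPM) and macrophage sums (76.1 to 85.3 against 65.3 to 73.0 CPM) were higher, and crest and erythroid sums overlapped. The part of these markers in the values of the members was not tested, and in whole limb buds a change in the number of cells of a type cannot be told apart from a change in RNA per cell.

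Of the other genes of the BCL2 family, 8 or 9 of 15 had enough counts to be tested. At 12 h 6 of the 8 passed, 3 in each direction, when 47.5% of all genes passed (19.6% at 6 h). Bok, an effector-like member, was called, at 6.97, 7.61 and 9.56 CPM in C59 against 14.5, 20.3 and 17.1 CPM in DMSO (-1.10 ± 0.15, adjusted p = 0.00019), and it had passed at 6 h (-0.72 ± 0.11, adjusted p = 0.00035) as the only one of this list to do so in that test. The mitophagy receptor Bnip3l (0.36 ± 0.04, adjusted p = 5.9e-05) and the BH3-only genes Bad (0.24 ± 0.08, adjusted p = 0.021) and Bik (0.92 ± 0.31, adjusted p = 0.030) rose, whereas Bcl2l12 (-0.59 ± 0.09, adjusted p = 0.00037) and Bcl2l13 (-0.16 ± 0.05, adjusted p = 0.029) fell. Bik was at 0.622 to 1.58 CPM in the 6 libraries. The guardian Bcl2l2 (0.05 ± 0.09, adjusted p = 0.68) and Bnip3 (0.13 ± 0.15, adjusted p = 0.50) did not pass. Without DMSO replicate 1 or without C59 replicate 1 the count at 12 h was 3. At 1, 18 and 24 h none of this list passed with edgeR (1 at an unadjusted p under 0.05 at each time, none with DESeq2 or limma). In DMSO between 1 h and 24 h 4 of 9 passed, where 56.5% of all genes did. Hrk rose (1.96 ± 0.50, adjusted p = 0.0030) from levels under 1 CPM, and Bok (-0.33 ± 0.11, adjusted p = 0.019), Bcl2l13 and Bnip3 fell. Bcl2a1a, Bcl2a1b, Bcl2a1d, Bcl2l10, Bcl2l14 and Bcl2l15 were under 0.54 CPM in every library and were not tested.

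The machinery downstream and upstream of the mitochondria, 25 genes of death receptors, apoptosome, caspases and their inhibitors, had 5 of 24 passing at 6 h (19.6% of all genes) and 12 of 25 at 12 h (5 higher, 7 lower), close to the 47.5% of all genes. The median log2 fold change at 12 h was -0.02 for the list and 0.0175 for all genes. Cycs, encoding cytochrome c itself, fell most, from 127, 119 and 126 CPM in DMSO to 60.8, 64.4 and 65.7 CPM in C59 at 12 h (-0.96 ± 0.05, adjusted p = 5.6e-07), after -0.29 ± 0.06 at 6 h (adjusted p = 0.0040). Birc3, an inhibitor of apoptosis (-0.67 ± 0.13, adjusted p = 0.0018), and the repair enzyme gene Parp1 (-0.48 ± 0.04, adjusted p = 5.0e-06) also fell at 12 h. The caspase 8 inhibitor Cflar (0.33 ± 0.06, adjusted p = 0.00071), Casp9 (0.33 ± 0.06, adjusted p = 0.0014) and Casp6 (0.27 ± 0.06, adjusted p = 0.0030) rose. At 6 h Apaf1 (0.25 ± 0.06, adjusted p = 0.0067) and Cflar (0.25 ± 0.06, adjusted p = 0.013) rose and Vdac2, a mitochondrial pore protein that holds BAK1 in check (-0.20 ± 0.05, adjusted p = 0.019), fell. At 1, 18 and 24 h 1, 2 and 1 genes of the list passed, and at 18 h without C59 replicate 3 it was 5.

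Targets of p53 other than the members passed in both directions, 5 higher and 3 lower of 21 at 6 h (19.6% of all genes passed) and 8 higher and 4 lower at 12 h (57.1% of the list against 47.5% of all genes), with a median log2 fold change at 12 h of 0.17. Trp53inp1, a stress-induced p53 cofactor gene, was 155, 159 and 135 CPM in C59 and 65.9, 65.2 and 60.7 CPM in DMSO at 12 h (1.23 ± 0.07, adjusted p = 6.6e-07). The mTORC1 inhibitor gene Ddit4 (0.97 ± 0.06, adjusted p = 1.6e-06) and the antiproliferative Btg2 (0.75 ± 0.09, adjusted p = 5.6e-05) also rose. Aen, an exonuclease gene induced in apoptosis, was called lower at both 6 h (-1.06 ± 0.06, adjusted p = 1.4e-07) and 12 h (-1.19 ± 0.08, adjusted p = 1.5e-06), and Plk3 (-1.18 ± 0.22, adjusted p = 0.0013) and Pidd1 (-0.59 ± 0.09, adjusted p = 0.00033) fell at 12 h. Cdkn1a, the cell cycle inhibitor p21 and a canonical p53 target, was lower at 6 h (-0.38 ± 0.10, adjusted p = 0.013) and did not pass at 12 h (-0.03 ± 0.12, adjusted p = 0.83). Plk2 also fell at 6 h (-0.28 ± 0.05, adjusted p = 0.0014). At 1 h and 24 h none passed with edgeR (4 at an unadjusted p under 0.05 at each time, 1 with DESeq2 at each, and 0 at 1 h and 1 at 24 h with limma), and at 18 h 3 passed, or 6 without C59 replicate 3 and 0 without DMSO replicate 3.

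Of 11 transcription factors known to act on BCL2 family genes, 8 passed at 6 h, when 19.6% of all genes did, and 10 at 12 h, when 47.5% did. Foxo3, an activator of Bcl2l11 and Bbc3, was 133, 144 and 139 CPM in C59 and 70.5, 83.4 and 71.5 CPM in DMSO at 12 h (0.88 ± 0.06, adjusted p = 2.9e-06), and 0.40 ± 0.06 at 6 h (adjusted p = 0.00020). Foxo1 was higher by 0.33 ± 0.07 at 12 h (adjusted p = 0.0030) and by 0.37 ± 0.07 at 6 h (adjusted p = 0.0033). Jun, the AP-1 subunit, was 193, 156 and 131 CPM against 81.1, 86.3 and 69.8 CPM at 12 h (1.02 ± 0.12, adjusted p = 7.9e-05), and Trp73 rose at 6 h (0.87 ± 0.19, adjusted p = 0.0063) and 12 h (0.73 ± 0.17, adjusted p = 0.0061). Mycn fell to 47.4, 53.8 and 53.9 CPM at 6 h from 146, 150 and 138 CPM in DMSO (-1.49 ± 0.06, adjusted p = 1.2e-09) and was -1.25 ± 0.08 at 12 h (adjusted p = 1.5e-06). E2f1 (-0.87 ± 0.07, adjusted p = 3.4e-06) and Myc (-0.61 ± 0.09, adjusted p = 0.00038) fell at 12 h, and Atf4 at 6 h (-0.36 ± 0.05, adjusted p = 0.00014). No factor of this list passed at 1 h with edgeR (3 at an unadjusted p under 0.05, none with DESeq2 or limma), 5 passed at 18 h (6 without C59 replicate 3 and 1 without any other single library) and 2 at 24 h (1 without any DMSO library or C59 replicate 2).

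**Figure D5:**
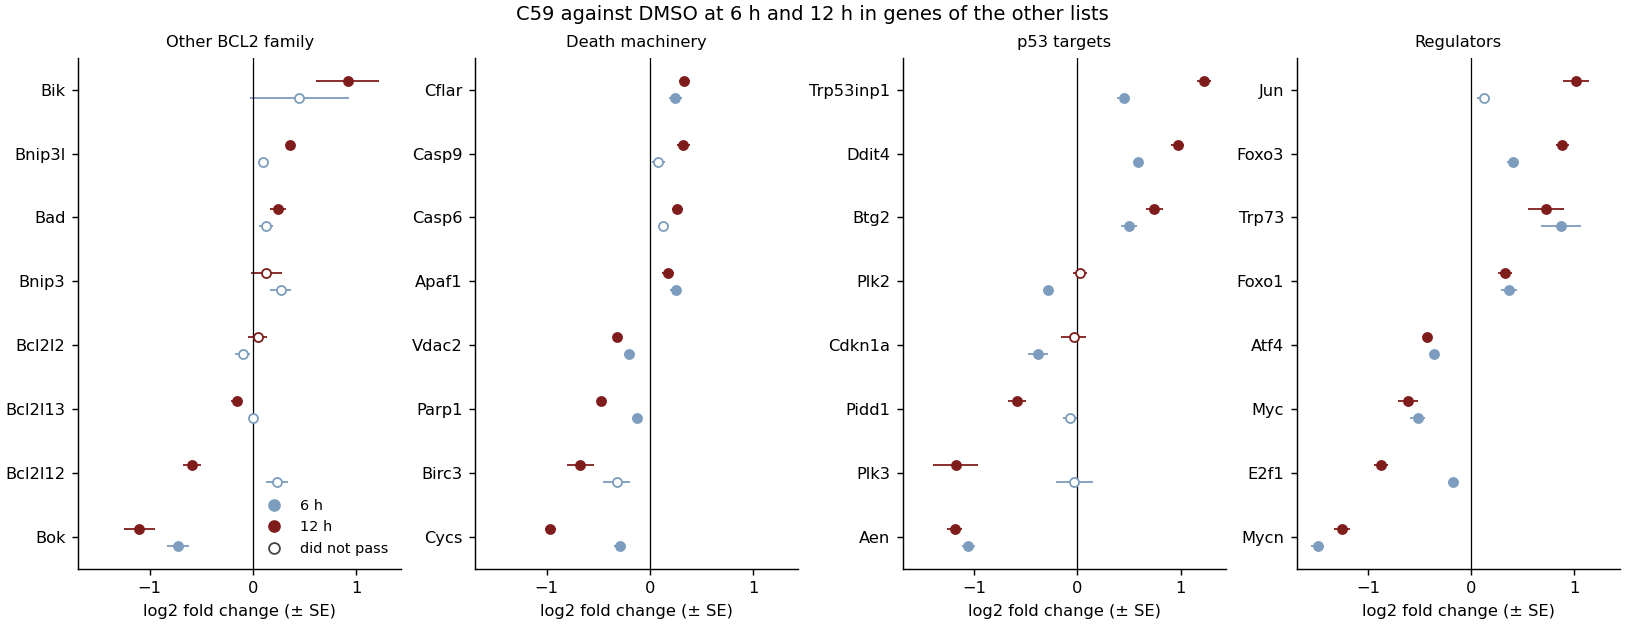
log2 fold change ± SE of C59 against DMSO at 6 h (blue) and 12 h (red) for the tested other BCL2 family genes and for the named genes of the other 3 lists. Filled points passed. Mycn (-1.49 at 6 h) and Trp53inp1 (1.23 at 12 h) are the extremes among them.

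In the control time course the same lists had 15 of 25 (death machinery), 15 of 21 (p53 targets) and 9 of 11 (regulators) genes passing between 1 h and 24 h, where 56.5% of all genes passed. Foxo3 rose (0.65 ± 0.09, adjusted p = 6.7e-06), Jun rose (0.95 ± 0.07, adjusted p = 9.6e-09) and Mycn fell (-0.85 ± 0.06, adjusted p = 1.3e-09), the directions they had in C59 at 12 h. Cycs fell in both as well (-0.36 ± 0.06, adjusted p = 5.9e-05). Among the members, Bax (-0.38 with time and -0.32 in C59 at 12 h), Bak1 (-0.43 and -0.20) and Mcl1 (-0.26 and -0.15) were also lower in both. Bcl2l11, Bbc3 and Bmf did not share this, being lower or not passing with time in DMSO and higher in C59 at 12 h. Bcl2 (0.99 with time and 0.07 in C59 at 12 h), Bcl2l1 (0.25 and 0.09) and Pmaip1 (-0.74 and -0.03) passed with time but not in C59. Bid passed in neither. How many of the other regulators, or of all genes, had the same direction in both was not counted.

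Among 12541 genes with a mean of at least 1 CPM, those with the most similar profile over the 30 libraries, by Pearson's r of log2 CPM as a description, were named for each member. They were Nbr1 (r = 0.93) and Npc1 (0.92) for Bmf, Mecom (0.93) for Bcl2l11, Glis2 (0.85) and Pnpla6 (0.85) for Bbc3, and Sall1 (0.94) and Mcub (0.88) for Pmaip1. For Bid they were Foxred2 (0.87) and Igf1 (0.81), for Bax Pebp1 (0.96) and Cdc37 (0.96), and for Bak1 Csnk1g2 (0.95) and Pebp1 (0.95). For the guardians they were Nfia (0.96) and Nfib (0.96) for Bcl2, Gadd45b (0.81) and Smpd5 (0.80) for Bcl2l1, and Ppp1r2 (0.95) and Fgfr1op (0.95) for Mcl1. These libraries share time, treatment and sequencing, so the points are not independent.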

How the data were processed

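RNA of 30 forelimb bud libraries was analysed from 2 deposited tables. The authors trimmed reads with Cutadapt 1.16, aligned them to mm10 with STAR 2.7.0e and deposited whole-number counts per gene, and separately deposited FPKM values computed with Cufflinks 2.2.1, which scale for length and depth. Cufflinks was run with an unstranded library setting, and the strand setting of the counting is not given in the sources used here. The count table holds 50833 genes and none on chromosomes X, Y or M. The depth was 18188636 to 38974885 counts per library. Protein-coding autosomal genes were tested.

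C59 and DMSO were compared at each time with edgeR 4.0.16 (R 4.3.3, TMM normalization, filterByExpr with a minimum count of 10, quasi-likelihood F test, Benjamini-Hochberg over all genes), and DMSO 24 h with 1 h in a fit of all 15 DMSO libraries. A gene passed at an adjusted p under 0.05 and was called when its absolute log2 fold change also exceeded 1. CPM were scaled by TMM over all 30 libraries. Alternatives were DESeq2 1.42.0, its size factors, no filter, 1 spread over all libraries, limma 3.58.1 on log2(FPKM + 1) and log2(FPKM + 0.1), a replicate block, and leaving out each library. Replicates differed by more than sampling noise (chi-square per degree of freedom 3.21 to 47.6). Same-numbered libraries did not deviate together (15 pairs, r from -0.133 to 0.103, 1 over 0.1), so numbers do not pair samples.

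The members and lists were chosen with earlier results of these data known. Named were all 10 members, Axin2, the other family genes, and in each other list up to 3 passed genes per direction with the largest change at 6 h and at 12 h, with the 2 genes most like each member over libraries, of which 1 is not reported here. BH3 codons were found by a pattern on GENCODE M21 transcripts, and promoters come from the RefSeq table (GRCm38.p6). The fits were tested on simulated counts.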

Additional observations from a re-analysis of the deposited data

Results flagged for a closer look

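For 6 of the 10 members the libraries of C59 lay wholly above those of DMSO at 1 time and wholly below them at another, so that the log2 fold change had opposite signs. These were Bbc3 (0.58 at 12 h and -0.27 at 1 h, difference 0.84), Bcl2l1 (0.09 at 6 h and -0.13 at 18 h, difference 0.22), Bcl2l11 (0.36 at 12 h and -0.23 at 24 h, difference 0.59), Bid (0.58 at 18 h and -0.52 at 6 h, difference 1.10), Bmf (1.40 at 12 h and -0.23 at 24 h, difference 1.63) and Pmaip1 (0.41 at 6 h and -1.38 at 24 h, difference 1.79). The difference between times was not tested. Groups that do not overlap are common in these data, between 22.0% and 57.1% of all genes at a time. The share of all genes wholly above at 1 time and wholly below at another was not computed. For Bid and Pmaip1 both values passed, for Bcl2l1 neither did, and for Bbc3, Bcl2l11 and Bmf the 12 h value alone passed.

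The same was seen for 13 of the other named genes, without a test of the difference. With the members, these made 19 of the 36 genes looked at. They were Aen (0.27 at 24 h and -1.19 at 12 h, difference 1.46), Apaf1 (0.25 at 6 h and -0.19 at 24 h, difference 0.44), Atf4 (0.14 at 24 h and -0.43 at 12 h, difference 0.56), Btg2 (0.75 at 12 h and -0.31 at 1 h, difference 1.05), Casp6 (0.27 at 12 h and -0.14 at 24 h, difference 0.40), Cflar (0.33 at 12 h and -0.29 at 24 h, difference 0.62), Cycs (0.16 at 24 h and -0.96 at 12 h, difference 1.13), Ddit4 (0.97 at 12 h and -0.21 at 1 h, difference 1.18), E2f1 (0.23 at 24 h and -0.87 at 12 h, difference 1.11), Jun (1.02 at 12 h and -0.17 at 1 h, difference 1.19), Myc (0.12 at 1 h and -0.61 at 12 h, difference 0.74), Mycn (0.35 at 18 h and -1.49 at 6 h, difference 1.84) and Pidd1 (0.28 at 24 h and -0.59 at 12 h, difference 0.87).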

How the results depend on the processing

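No member value that had passed turned direction under any alternative. Values of C59 against DMSO that had not passed changed sign for Bcl2 at all 5 times and Bax at 1 h and 18 h. The same held for Bak1 at 18 h, Pmaip1 at 12 h, Bid at 24 h, and Bid in DMSO over time. In 13 cases a member value moved by more than the SD of its replicates, among them Bmf, Bcl2l11, Bbc3, Bax, Bak1 and Mcl1 at 12 h. Bmf at 12 h was between 1.37 and 1.48. The count of members passed was the same or within 1.5 times of the value given except with 1 spread over all libraries, when 5 passed at 18 h and 3 at 24 h, without DMSO replicate 3 at 18 h (1) and without C59 replicate 1 at 24 h (3). In DMSO, the 8 members that passed did so in all 22 alternatives.

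Other counts moved by more than 1.5 times as follows. With DESeq2, death machinery at 18 h was 4 and p53 targets were 1 at 1 h and 1 at 24 h. With no filter on low counts, p53 targets were 1 at 1 h and 3 at 24 h, regulators 1 at 1 h and the other family 2 at 6 h. With 1 spread over all libraries, death machinery was 0 at 1 h, 6 at 18 h and 0 at 24 h, p53 targets 5 at 6 h and 6 at 18 h, the other family 1 at 18 h and regulators 1 at 24 h. With limma, for either pseudocount, death machinery was 0 at 1 h and 2 at 6 h, p53 targets 1 at 24 h and regulators 1 at 24 h, and with the pseudocount of 0.1 regulators were 5 at 6 h. With the replicate block, death machinery had 0 genes at 1 h, 1 gene at 18 h and 0 genes at 24 h, and p53 targets and regulators had 1 each at 18 h, whereas the members that passed numbered 0, 5, 6, 2 and 1 in time order and 8 in DMSO over time. The numbers do not pair the samples, and the cause was not tested.

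Leaving out 1 library gave these ranges. Members passed were 0 to 0 at 1 h, 4 to 6 at 6 h, 4 to 6 at 12 h, 1 to 4 at 18 h (1 without DMSO replicate 3), 1 to 3 at 24 h (3 without C59 replicate 1), 8 to 8 in DMSO between 1 h and 24 h, and 7 to 9 among any DMSO times. For the other family they were 0 to 0, 1 to 3 (3 without DMSO replicate 1), 3 to 6, 0 to 0 and 0 to 0 at the 5 times and 3 to 4 in DMSO. For death machinery they were 0 to 2, 3 to 6, 9 to 12, 1 to 5 and 0 to 2, and 12 to 16 in DMSO. For p53 targets they were 0 to 2, 5 to 9, 9 to 11, 0 to 6 and 0 to 1, and 12 to 16 in DMSO. For regulators they were 0 to 0, 7 to 8, 10 to 10, 1 to 6 and 1 to 3, and 8 to 10 in DMSO. At 18 h, leaving out C59 replicate 3 gave 5 death machinery genes, and any of DMSO replicates 1 to 3 or C59 replicate 2 gave 1. For p53 targets at 18 h it was 6 without C59 replicate 3, 0 without DMSO replicate 3 and 1 without any other library, and for regulators 1 without any library other than C59 replicate 3. At 6 h, p53 targets were 5 without C59 replicate 1 or 3, and death machinery was 3 without DMSO replicate 1 or 3 or C59 replicate 1 or 2. At 24 h, regulators were 1 without any DMSO library or C59 replicate 2, p53 targets 1 without C59 replicate 1 or 3, and death machinery 2 without C59 replicate 3 and 0 without any other but C59 replicate 2. At 1 h, leaving out DMSO replicate 3 gave 2 death machinery genes and 2 p53 targets, and any other library 0 of either.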
